A study of Mus musculus with 4 samples.

Results

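The 10 genes described here mark the relay neurons of the thalamus and were measured in mice at postnatal day 14, in tissue from the thalamus and the hypothalamus together. They are Tcf7l2, Lef1, Gbx2, Lhx2, Lhx9, Rora, Foxp2, Prkcd, Ntng1 and Ramp3, chosen by name, and each was found through the RefSeq accession of its array probes. All 10 had a probe, 17 probes in all of 41174 on the array; 4 genes had 1 probe and 6 had several. A further 14256 probes on the array could not be named through their accessions, so a member may have more probes than these. Dark-reared mice came from dams that were moved into a cage wrapped in black plastic 1 to 4 days before giving birth, and they stayed there, with dim red light used for care, until sampling. Control mice lived on a daily cycle with 12 hours of light. The sources used here give no strain, sex or genotype. Each group had 2 samples (D1 and D2 dark-reared, C1 and C2 control, after their replicate numbers), called biological replicates without the number of animals behind each, and 1 one-colour (Cy3) Agilent array was run for each. The design asks how growing up in darkness affects the expression of genes in this tissue.

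Relay neurons are the glutamatergic cells that carry sensory signals from the thalamus to the cortex. Their identity is set up by transcription factors that switch on in the young thalamus, in part under Wnt signalling, and that stay on in many nuclei into maturity. In the visual thalamus these cells receive the input of the retina. The 10 genes fall into Wnt effectors (Tcf7l2, Lef1), homeodomain factors (Gbx2, Lhx2, Lhx9), other transcription factors (Rora, Foxp2) and products of the mature cell (the kinase gene Prkcd, the axon surface gene Ntng1 and the receptor partner gene Ramp3).

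The promoters of Tcf7l2, Prkcd and Ramp3 are shown first, because these genes shared their highest array, C1, and because 1 of them held the TCF/LEF motif. C1 was the highest array for Lef1, Rora and Ntng1 as well, whose promoters are not shown. Each is the 250 bases before the RefSeq start site farthest 5′ of the gene, in GRCm38.p6, read 5′ to 3′ along the gene. Capitals mark the GC box GGGCGG and the core of the TCF/LEF motif, CTTTGA, on either strand.
Tcf7l2 (chr19:55741560-55741809, + strand): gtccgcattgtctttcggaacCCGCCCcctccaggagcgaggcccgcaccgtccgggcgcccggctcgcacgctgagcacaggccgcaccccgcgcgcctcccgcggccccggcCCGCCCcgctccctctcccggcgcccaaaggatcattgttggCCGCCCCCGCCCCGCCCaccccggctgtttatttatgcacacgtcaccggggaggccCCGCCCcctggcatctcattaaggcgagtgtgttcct
Prkcd (chr14:30626209-30626458, - strand): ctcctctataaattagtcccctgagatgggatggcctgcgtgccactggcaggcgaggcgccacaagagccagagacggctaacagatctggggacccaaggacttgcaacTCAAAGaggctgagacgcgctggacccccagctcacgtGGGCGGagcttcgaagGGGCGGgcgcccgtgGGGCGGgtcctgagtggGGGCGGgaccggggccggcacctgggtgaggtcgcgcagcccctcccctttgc
Ramp3 (chr11:6658283-6658532, + strand): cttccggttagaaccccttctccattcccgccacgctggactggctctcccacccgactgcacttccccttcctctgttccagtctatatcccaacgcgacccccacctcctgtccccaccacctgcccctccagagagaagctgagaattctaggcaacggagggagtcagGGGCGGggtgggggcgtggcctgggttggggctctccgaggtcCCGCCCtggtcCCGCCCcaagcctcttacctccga
The Prkcd promoter held the only CTTTGA match, in opposite orientation from -139 to -134 relative to the start. Of the 9 members with a window (Tcf7l2, Lef1, Gbx2, Lhx2, Lhx9, Rora, Prkcd, Ntng1 and Ramp3), 1 held CTTTGA, against 13.8% of all 32851 promoters. Foxp2 had no window. The shares of all promoters count every window, and a gene may have several. Each member gave only its farthest 5′ window, so the sets are not alike. The ROR core AGGTCA (14.0% of all promoters), the homeodomain core TAATTA (4.84%) and the forkhead core TGTTTAC (3.17%) were in 0 of the 9. GGGCGG was in 7 of 9, against 32.7% of all promoters, and matches of it overlap each other in Tcf7l2. All 9 windows had more G and C than the median of all promoters, 53.6% to 72.8% against 52.4%. These are matches of letters in a short window and say nothing of binding.

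Levels are given as log2 of the signal over that array's 75th percentile, so that a difference of 1 is 2-fold. Between 65.9% and 73.3% of probes gave a signal that the scanner software called well above background. Of the 17 member probes, 15 cleared the detection filter (well above background in both samples of a group) and were tested. The brightest kept probe stood for each gene, and for all 10 genes that probe was well above background on all 4 arrays. Levels of different genes are not compared, since each probe has its own response. D2 and C2 lay on the same slide, and the other arrays on a slide each.

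Marker genes of other regions and cell types differed between single arrays. Hypothalamus markers (13 tested of 18) were low in D1, at a mean log2 deviation of -1.56 from the 4-array mean, against 0.57 in D2, 1.08 in C1 and -0.09 in C2. Striatum markers, which belong to a region outside the labelled tissue, were well above background on all arrays for 12 of 12 genes. Their mean deviation was 0.83 in D1 and 0.62 in C2, against -0.79 in D2 and -0.67 in C1. Oligodendrocyte markers were low in D2 (-1.23) and choroid plexus markers in C2 (-2.08).

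None of the 10 genes passed the test of dark against normal rearing. In limma, with Benjamini-Hochberg adjustment, 0 of 10 fell under an adjusted p of 0.05 and each stood at 1; among all 21426 genes tested the share was 0.00%. Lhx2, at an unadjusted p of 0.0436, was the 1 member under 0.05, where 1.26% of all genes were. Group means were lower in dark-reared mice for 8 of 10 members, against 51.8% of all genes, and the median log2 difference of the members was -0.53 against -0.0065 for all genes. In 2 of 10 the groups did not overlap, where 19.1% of all genes did so in either direction. Ramp3 was the 1 lower without overlap (9.58% of all genes) and Lhx2 the 1 higher (9.53%). Ramp3 alone was also at least 2-fold apart, against 1.20% of all genes in either direction and 0.770% lower; 0 were at least 2-fold higher (0.429%). Group means were at least 2-fold apart, overlapping or not, for 1 of 10 (2.34%). The smallest p that exact permutation of 4 samples can reach, two-sided, is 0.333.

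The count of lower members rested on D1 and C1. It was 3 of 10 without D1 and 3 of 10 without C1, and the median was then 0.13 in both cases. It was 8 of 10 without D2 (median -1.16) and 8 of 10 without C2 (median -1.32). Within the shared slide 7 of 10 members were higher in the dark-reared sample, with a median of 0.59.

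**Figure D1:**
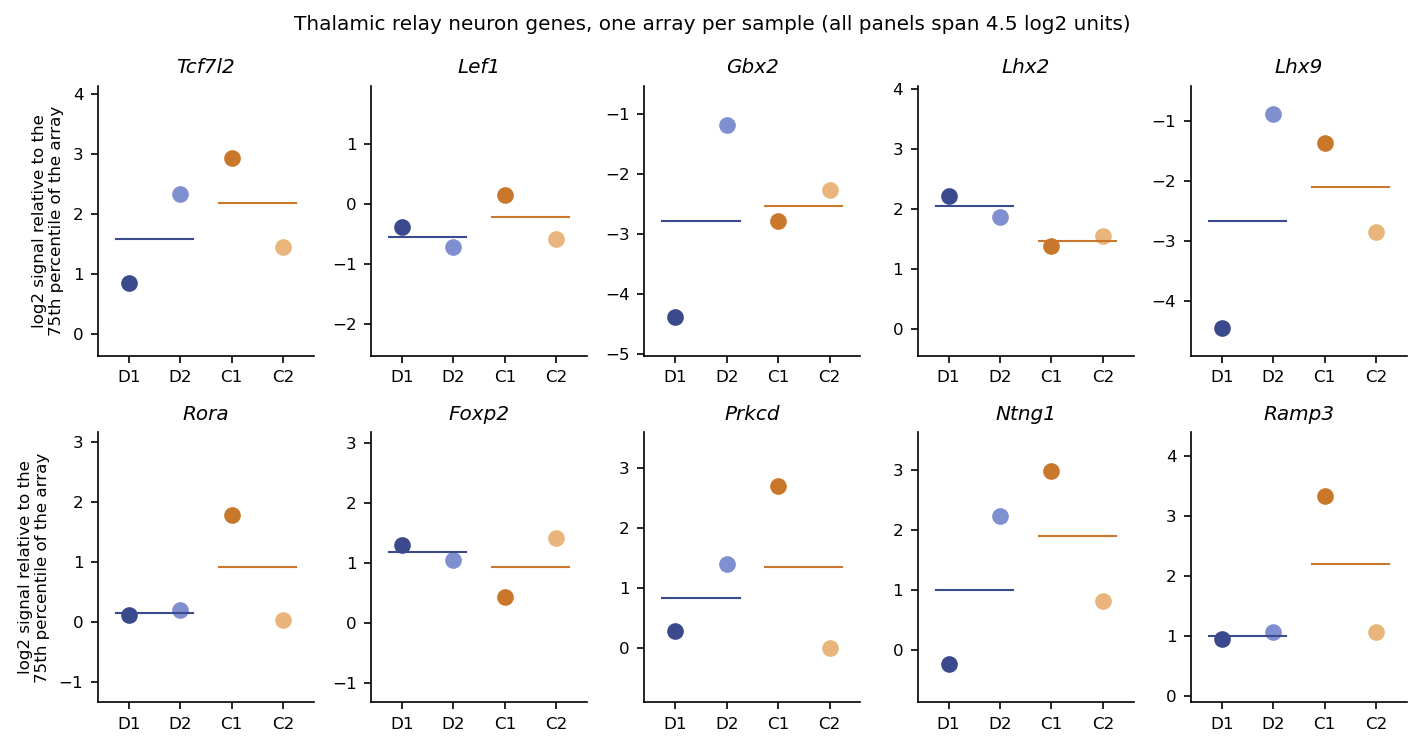
Log2 signal relative to the 75th percentile of the array (vertical axis) of the 10 relay neuron genes in the 2 dark-reared (D1, D2, blue) and 2 control (C1, C2, orange) samples; points are single arrays and horizontal lines group means. C1 is highest for 6 genes (Tcf7l2, Lef1, Rora, Prkcd, Ntng1, Ramp3), and the groups do not overlap for Lhx2 and Ramp3.

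Tcf7l2 encodes the HMG-box factor that acts with beta-catenin in Wnt signalling and that defines thalamic and habenular neurons. Its log2 signal (NM_009333) was 0.85 in D1, 2.34 in D2, 2.93 in C1 and 1.46 in C2. The groups overlapped, since D2 lay above C2, and each group held 1 high and 1 low sample. The means were 1.59 ± 1.05 (SD, n = 2) and 2.20 ± 1.04 (SD, n = 2), which differ by -0.60 (standard error 0.76, limma unadjusted p = 0.471). Within the shared slide the difference was 0.88, and it was 0.14 without D1 and 0.13 without C1.

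Lef1, which encodes a second factor of the same TCF/LEF family, varied less (NM_010703). It stood at -0.38 in D1, -0.71 in D2, 0.15 in C1 and -0.58 in C2. C1 was the highest array, and the other arrays lay within 0.33 of each other. The group difference was -0.33 with a standard error of 0.32 (limma, unadjusted p = 0.362), and it was 0.04 without C1. Partner and target genes of the pathway, apart from Tcf7, had smaller group differences than Lef1. Ctnnb1, the gene for beta-catenin, lay between 3.52 and 3.66 on all arrays, and differed by 0.04 (standard error 0.15). Axin2, a feedback target of the pathway, differed by 0.03 (standard error 0.23). Of 9 tested genes on a list of 12 Wnt targets 5 were higher and 4 lower, 0 with an unadjusted p under 0.05 in limma and 0 after adjustment, with differences from -0.28 (Lgr5) to 0.24 (Sp5). Within the shared slide 8 of these 9 targets were lower in the dark-reared sample, where 11063 of 21426 genes were. The median difference there was -0.28 for the targets and -0.012 for all genes. Tcf7, another member of the family, differed by -0.37 (standard error 0.43), and Tcf7l1 lay between -0.63 and -0.50.

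Gbx2 encodes a homeodomain factor of young thalamic neurons after their last division. Its log2 signal (NM_010262) was -4.39 in D1, -1.19 in D2, -2.79 in C1 and -2.28 in C2. Both extremes thus lay in the dark-reared group and both controls between them. The difference was -0.26 with a standard error of 1.16 (limma, unadjusted p = 0.837), and it was 1.34 without D1 and -1.86 without D2. It was -0.035 under the normexp background correction with outlying local backgrounds replaced. Lhx9, a LIM-homeodomain factor gene of thalamic and other diencephalic neurons, had the same extremes. Its values (NM_001025565) were -4.45, -0.87, -1.36 and -2.84 in D1, D2, C1 and C2. The spread of 3.58 over the arrays was the widest among the members, and 0.471% of all genes had a spread as wide. Its low end was a weak D1 signal, though called well above background. The second, dimmer Lhx9 probe was not well above background in D1. The difference was -0.56 with a standard error of 1.38 (limma, unadjusted p = 0.706), 1.97 within the shared slide, 1.23 without D1, 0.18 without C1 and -0.22 under that same background correction. The habenula is the region beside the thalamus that also uses Tcf7l2 and Lhx9. Of its markers, 4 of 5 tested were highest in D2 (28.9% of all genes). Their mean deviation was 0.44 there and -0.24, 0.05 and -0.25 in D1, C1 and C2. The exception, Pou4f1, was lowest in D2, at -2.08, -2.13, -1.84 and -1.91 in D1, D2, C1 and C2. Tac2 had no named probe, and Gpr151, Chrnb4, Chrna3 and Nhlh2 did not pass the detection filter, so this list has few of its defining genes, and its part in the result was not tested.

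Lhx2 encodes the LIM-homeodomain relative of Lhx9, which also acts in cortical progenitors. It was the 1 member higher in both dark-reared samples (NM_010710). It stood at 2.22 in D1 and 1.87 in D2, against 1.38 in C1 and 1.56 in C2. The means were 2.04 ± 0.25 (SD, n = 2) and 1.47 ± 0.12 (SD, n = 2), which differ by 0.57 (standard error 0.20), or 1.49-fold, and the gene did not pass (limma, unadjusted p = 0.0436, adjusted p = 1). The difference was 0.31 within the shared slide and ran from 0.40 to 0.75 with 1 array left out. On the same arrays cortex and hippocampus markers were higher after dark rearing for 10 of 17 tested genes (median 0.34), and 4 of the 17 did not overlap, all higher, where 19.1% of all genes did not overlap in either direction. Their mean deviation was 0.23, 0.11, 0.03 and -0.36 in D1, D2, C1 and C2. Their summed signal, in multiples of the 75th percentile, was 76.2 to 218 in dark-reared and 92.2 to 167 in control samples. Most of that sum on each array was 1 gene, Nrgn, at log2 7.51, 5.63, 6.12 and 7.04 in D1, D2, C1 and C2. The sum thus does not measure the list as a whole. Prox1 on this list is also on the list of other thalamus genes, and Rorb is also a gene of sensory relay nuclei. Whether cortical tissue had a part in the Lhx2 values was not tested.

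Rora encodes the nuclear receptor ROR alpha, found in thalamic relay neurons and in cerebellar Purkinje cells. Its values (NM_013646) were 0.10 in D1, 0.19 in D2, 1.78 in C1 and 0.02 in C2. C1 was 1.59 above the next array, while the other arrays lay within 0.17 of each other. The difference of -0.75 (standard error 0.64, limma unadjusted p = 0.305) was therefore 0.12 without C1. Rorb, the gene of a related receptor of sensory relay nuclei and cortical layer 4, was also highest in C1, at 0.07 against -0.97, -0.69 and -1.06 in D1, D2 and C2.

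Foxp2 encodes a forkhead factor that relay neurons share with striatal projection neurons and deep cortical neurons. It ran the other way (NM_053242), at 1.30 in D1, 1.04 in D2, 0.43 in C1 and 1.41 in C2. C1 was the lowest array for it, and C2 the highest. The difference was 0.25 with a standard error of 0.38 (limma, unadjusted p = 0.547), -0.36 within the shared slide and -0.23 without C1. Striatum markers had their highest value in D1 for 9 of 12 genes and in C2 for 3 of 12, and their lowest in D2 for 9 and in C1 for 3. Foxp1, the striatal relative of Foxp2, was at 4.18, 2.71, 2.80 and 4.07 in D1, D2, C1 and C2. The summed signal of the 12 striatum markers was 393 and 129 times the 75th percentile in D1 and D2 and 149 and 356 in C1 and C2. The part of striatal tissue in the Foxp2 values was not tested.

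Prkcd encodes protein kinase C delta, widely used to mark the sensory relay nuclei. Its values (NM_011103) were 0.28 in D1, 1.40 in D2, 2.70 in C1 and -0.00 in C2. The controls were the highest and the lowest arrays, with the dark-reared samples between them. The difference was -0.51 with a standard error of 1.05 (limma, unadjusted p = 0.655), 1.40 within the shared slide, 0.84 without C1 and -1.86 without C2. Among its relatives the range over the arrays was 0.27 for Prkca, 0.43 for Prkce and 1.16 for Prkcb.

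Ntng1 encodes netrin-G1, a lipid-anchored protein on thalamocortical axons. Its values (NM_030699) were -0.24 in D1, 2.23 in D2, 2.99 in C1 and 0.82 in C2. As for Tcf7l2, each group held 1 high and 1 low sample, and the order of the arrays was the same. The difference was -0.91 with a standard error of 1.18 (limma, unadjusted p = 0.482), 1.41 within the shared slide, 0.32 without D1 and 0.17 without C1. Lrrc4c, the gene of its binding partner on the target cell, ranged only from 2.44 in C1 to 2.94 in D1.

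Ramp3 encodes a single-pass membrane protein that pairs with receptors of the calcitonin family. Its values (NM_019511) were 0.94 in D1, 1.06 in D2, 3.34 in C1 and 1.06 in C2. C1 was 2.28 above the next array, while the other arrays lay within 0.12 of each other. The groups did not overlap, with C2 barely above D2. The means were 1.00 ± 0.08 (SD, n = 2) and 2.20 ± 1.61 (SD, n = 2), which differ by -1.20 (standard error 0.82), and the gene did not pass (limma, unadjusted p = 0.219, adjusted p = 1). As a fold, this difference of log2 means is 0.436, dark-reared over control. Within the shared slide the difference was -0.0027, and without C1 it was -0.06. Ramp1 and Ramp2, its relatives, ranged over 0.41 and 0.31. Calcr, the calcitonin receptor gene, was at -3.85 in D1 against 0.47, 0.76 and -0.59 in D2, C1 and C2, and differed by -1.77 (standard error 1.62). Over all 21 tested partners and relatives of the members (of 22 listed; Ntng2 did not pass the filter), 13 were higher and 8 lower, 0 had an unadjusted p under 0.05 in limma and 0 passed after adjustment, and the median difference was 0.02.

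**Figure D2:**
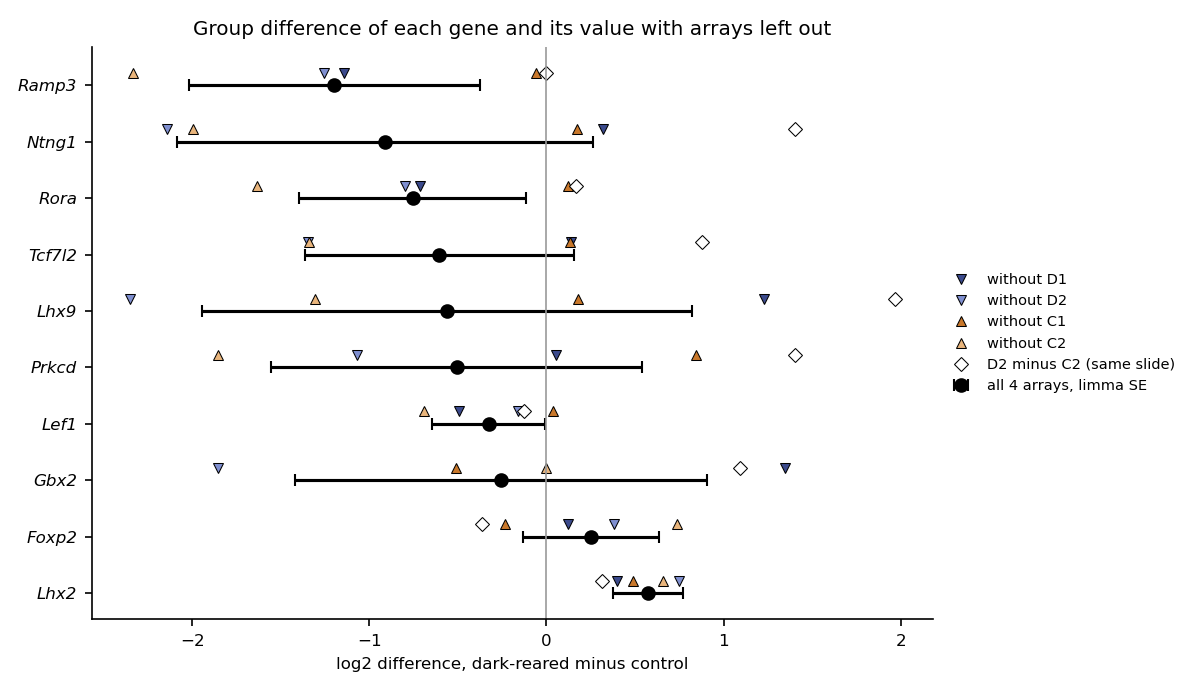
Log2 difference between dark-reared and control mice (horizontal axis) for the 10 relay neuron genes; black points and bars are the limma estimate over all 4 arrays with its standard error, triangles the estimate with 1 array left out, and diamonds D2 minus C2, which share a slide. Lhx2 stays above 0 throughout. Ramp3 stays below 0, but only barely within the shared slide (-0.0027) and without C1 (-0.06). The other genes have values on both sides of 0.

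For 4 genes with several tested probes the group differences had the same sign on each probe. The 3 Tcf7l2 probes differed between groups by -0.54, -0.64 and -0.60, the Rora probes by -0.75 each, the Prkcd probes by -0.51 each and the Foxp2 probes by 0.37 and 0.25. The second Ntng1 probe, untested, was not well above background in D1 and C2, which were also the low arrays for the bright probe. Its groups differed by -0.74. The second Lhx9 probe, also untested, was well above background in D2 alone, the highest array for the bright probe. Its groups differed by 0.08, opposite in sign to the bright probe (-0.56), from values mostly not well above background.

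**Figure D3:**
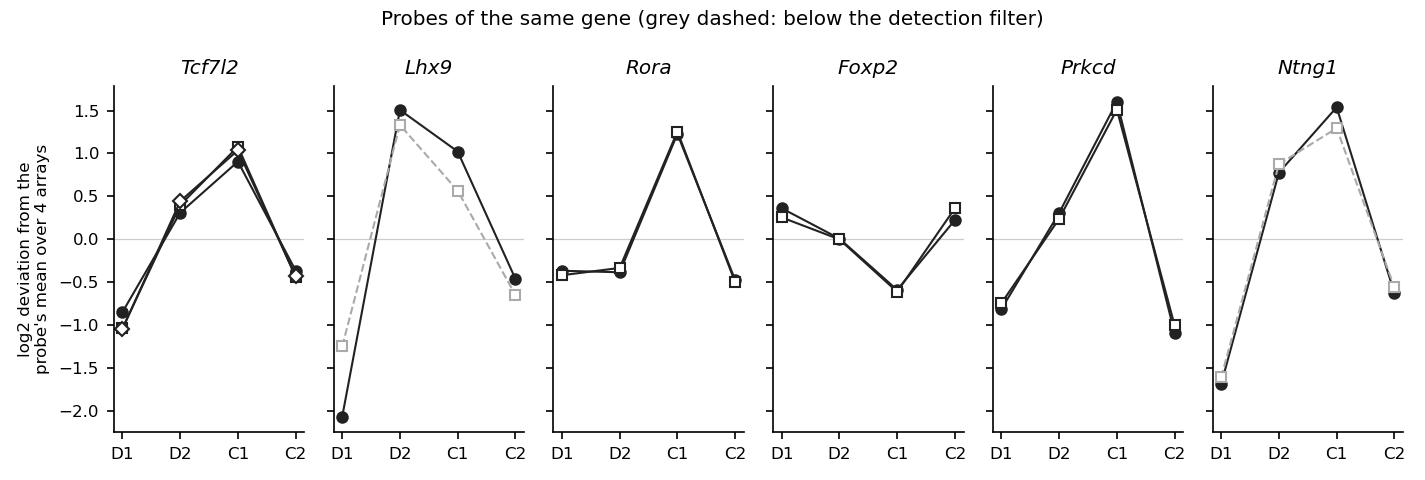
Deviation of each probe from its own mean over the 4 arrays (log2, vertical axis) for the 6 relay neuron genes with several probes; each line is a probe, joined across arrays that have no order, and grey dashed lines are the probes below the detection filter. Tested probes of a gene lie close together, with C1 highest for Tcf7l2, Rora, Prkcd and Ntng1 and lowest for Foxp2.

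The members spread widely between single arrays. The highest array exceeded the lowest by a median of 2.24 over the members, against 0.42 over all genes tested. The excess was less than 1 for Lef1 (0.86), Lhx2 (0.84) and Foxp2 (0.97). Choroid plexus markers had a median of 3.25, hypothalamus markers 2.52, oligodendrocyte markers 2.12, other thalamus genes 1.91 and striatum markers 1.74. A wide spread was thus not particular to the members. The remaining lists spread less, from 1.55 for cortex and hippocampus markers to 0.35 for astrocyte markers. C1 was the highest array for 6 of 10 members, where it was for 23.7% of all genes, D2 for 2 (28.9%), D1 for 1 (25.9%) and C2 for 1 (21.4%). D1 was the lowest array for 5 of 10, against 28.4% of all genes, C1 for 2 (25.8%), C2 for 2 (17.5%) and D2 for 1 (28.3%). C1 was at least 2-fold above every other array for 3 of 10, Rora, Prkcd and Ramp3, against 0.373% of all genes. D1 was at least 2-fold below every other array for 3 of 10, Gbx2, Lhx9 and Ntng1, against 1.88%. For Gbx2 and Lhx9 the D1 signal was weak, at -4.39 and -4.45. Among other thalamus genes C1 was 2-fold above the rest for 4 of 22, and D1 2-fold below for 4. Among hypothalamus markers these counts were 3 and 7 of 13. These counts by array were chosen after the values were seen and have no test.

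**Figure D4:**
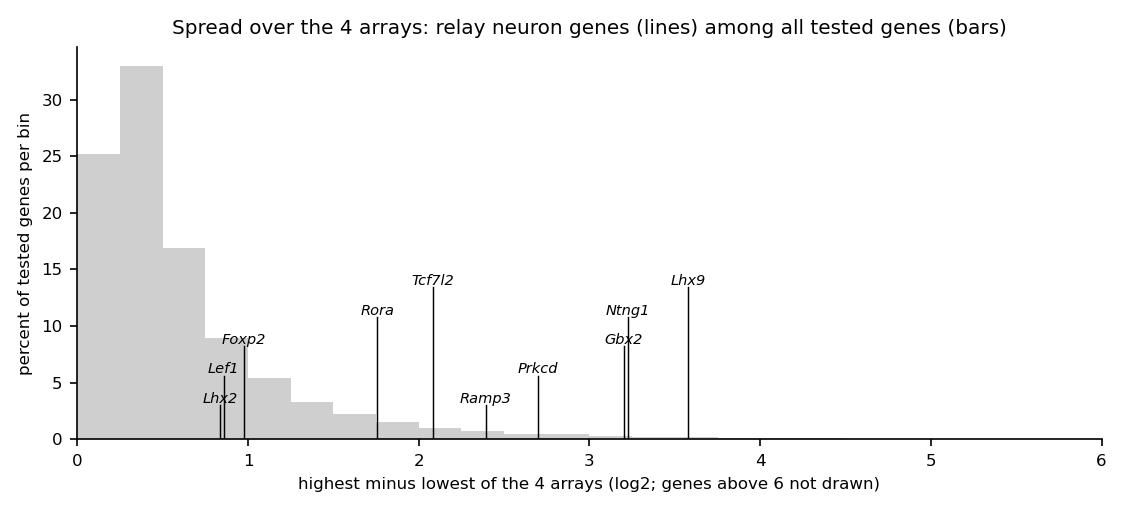
Percent of all 21426 tested genes (bars, bins of 0.25) by the difference between the highest and the lowest of the 4 arrays (log2, horizontal axis), with the 10 relay neuron genes as lines whose heights carry no value. Lef1, Lhx2 and Foxp2 lie under 1, and the other 7 between 1.76 (Rora) and 3.58 (Lhx9).

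Among themselves the members were compared by the root mean square distance between their profiles over the 4 arrays, each centred on its mean, a description that also grows with the size of a gene's spread. The closest of the 45 pairs were Rora and Ramp3 (0.29), both set apart by C1 alone, and Lhx2 and Foxp2 (0.33), both lowest in C1. Tcf7l2 was closest to Ntng1 (0.45). The most distant pair was Lhx9 and Foxp2 (1.66). Outside the members, the gene nearest to Tcf7l2 among 13519 with a symbol and a signal on all arrays was Chrna4, which encodes the alpha 4 nicotinic receptor subunit, at a distance of 0.04. It stood at -1.86, -0.38, 0.13 and -1.25 in D1, D2, C1 and C2. Vwc2, Adgra1, Slc41a3, Pcbd1 and Fcmr followed, at 0.09 to 0.12. Nearest to the median profile of the members were Nrip3 (0.05), Adamts15, Scube2, Plekha7, Plcb4 and Apobec2 (0.10), of which Plcb4, a phospholipase C gene, was also on the list of other thalamus genes.

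Other genes of the thalamus were also mostly lower in dark-reared mice. On a list of 24 that holds no member, Synpo2 and Shox2 did not pass the filter, and 20 of 22 tested were lower and 2 higher, at a median of -0.51; 0 had an unadjusted p under 0.05 in limma and 0 passed after adjustment. Over all genes 51.8% had a lower mean. C1 was the highest array for 15 of 22 (23.7% of all genes) and D1 the lowest for 14 of 22 (28.4%). The list was chosen with earlier results of these data known, so it is no independent check of the members. Within the shared slide the median was 0.55, with 16 of 22 higher in the dark-reared sample, and it was 0.02 without D1 and -0.01 without C1. Tnnt1, a troponin gene used as a marker of thalamic nuclei, followed Ramp3, at -1.44, -1.53, 1.01 and -1.26 in D1, D2, C1 and C2. Slc17a6, the vesicular glutamate transporter of relay neurons and of hypothalamic glutamatergic cells, followed Tcf7l2, at -1.003, 3.43, 3.89 and 1.64. Cacna1g, the gene of the T-type calcium channel of thalamic bursts, did so as well, at -0.37, 1.34, 1.67 and 0.55. The exceptions in direction were Zic1, highest in D2 at 5.07, and Etv1, each a little higher in dark-reared mice (0.21 and 0.15).

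Fewer relay neurons in a sample and less RNA per relay neuron cannot be told apart in such tissue. The mean deviation of the members was -0.77 in D1, 0.34 in D2, 0.76 in C1 and -0.33 in C2, and that of the other thalamus genes was -0.73, 0.24, 0.75 and -0.25. The arrays low in both lists were those high in striatum markers, D1 and C2. Their summed signals ran the same way, at 14.8 and 22.9 times the 75th percentile for the members in dark-reared samples and 41.2 and 15.2 in controls. Hypothalamus markers had the same order of arrays as the members, with the mean deviations given above. In this list 10 of 13 were lower in dark-reared mice (51.8% of all genes), at a median of -0.80 (0.66 within the shared slide). C1 was the highest array for 9 (23.7% of all genes) and D1 the lowest for 8 (28.4%). Reticular and prethalamic markers (12 tested), which belong to the inhibitory neurons around the thalamus, averaged between -0.10 and 0.18, over genes with differences from -2.37 (Pvalb) to 0.44 (Dlx1). Astrocyte markers (9 tested) averaged between -0.10 and 0.09. The part of the tissue content of a sample in the differences between the groups was not tested.

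**Figure D5:**
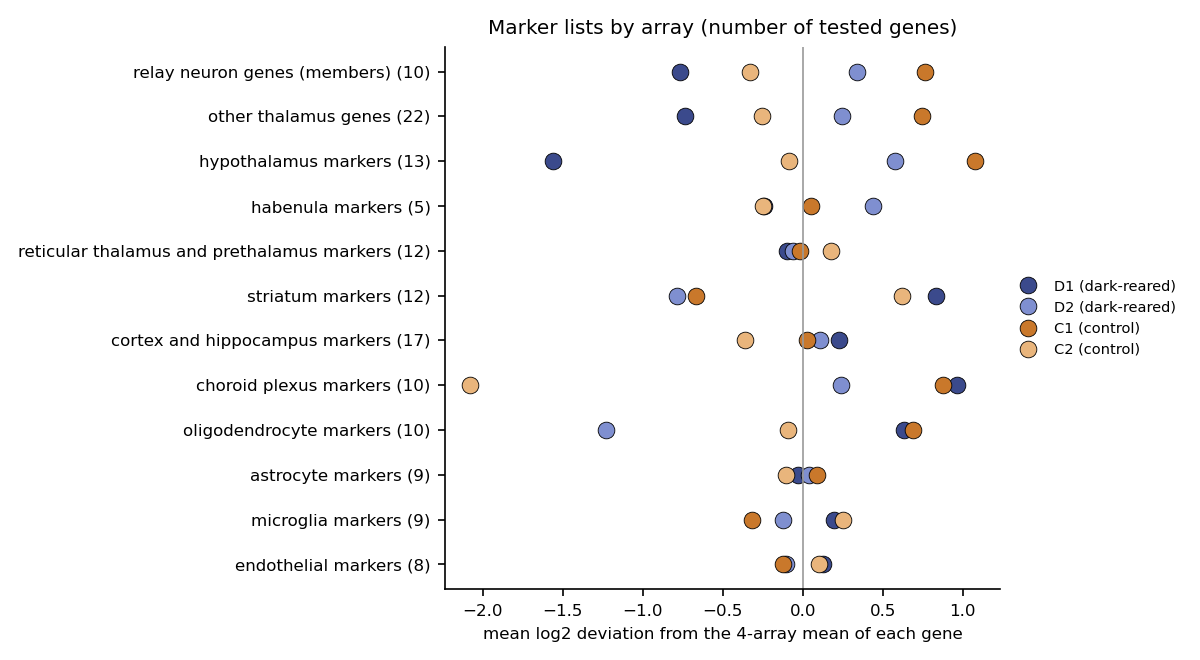
Mean log2 deviation from the 4-array mean of each gene (horizontal axis) for the relay neuron genes and 11 marker lists, with the number of tested genes in brackets; each point is 1 array (dark-reared blue, control orange). The relay neuron genes and the other thalamus genes are lowest in D1 and highest in C1, and striatum markers are highest in D1 and C2.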

How the data were processed

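Total RNA of 4 samples was measured on one-colour Agilent arrays. Per the file headers, the scanner software was Agilent Feature Extraction 10.7.3.1 (the submitters' processing notes give 10.7); the deposited processed signal is a background-subtracted, detrended intensity with no scaling between arrays, and the raw spot and background intensities were used in an alternative. Spots and probes carry scanner flags per the file headers (other values, 0 or 1). The authors also deposited log2 values, with a median of 6.84 on each array and a correlation of 0.999 to 1.000 with the processed signal (log2, over probes); their normalization was not given in the sources used here, and they served as an alternative.

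Outlier spots (79 to 103 an array) were left out, spots of a probe were averaged on the log2 scale, and the 75th percentile of each array (764 to 794) was subtracted. Accessions were named through RefSeq symbols of GRCm38.p6 (26918 of 41174 probes; the array annotation refers to another build, so its positions are not used), and unnamed probes were kept under their own identifiers. The detection filter kept 28444 probes, each well above background in both samples of at least one group, the brightest for each gene, which gave 21426 genes. The comparison of 2 samples with 2 used lmFit and eBayes of limma 3.58.1 (R 4.3.3), with two-sided p-values adjusted by Benjamini-Hochberg over the 21426 genes; the code was tested on simulated data. No spot was saturated. The number of arrays limits the precision. The p-values set a group difference against the spread between these samples, with the variance of each gene drawn toward that of all genes. All 10 members are named, with up to 4 genes of each other list (those with the largest differences in each direction), Slc17a6, Cacna1g, Tnnt1, Axin2, Tcf7 and Ctnnb1, and the 6 nearest profiles of Tcf7l2 and of the member median; some genes under this rule are not reported here; relatives of the members named beyond this rule were chosen after their values were seen. The members and lists were chosen with earlier results of these data known. Other scalings, background corrections, filters, probe rules, blocks and left-out arrays were tried as alternatives, 1 of them added after seeing the data. Promoter sequences are from RefSeq.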

Additional observations from a re-analysis of the deposited data

How the results depend on the processing

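No member and none of the genes tested passed the adjusted threshold in limma under any alternative that has a test. All 10 members kept their sign under the other scalings (array median, quantile, both normexp corrections, the deposited log2 values), filters and probe rules, and 8 of 10 stayed lower in dark-reared mice; Gbx2 (-0.035) and Lhx9 (-0.22) moved by over 1.5 times under normexp after outlying local backgrounds were replaced. Within the shared slide, which has no test, 3 of 10 were lower, and Foxp2 (-0.36), Gbx2 (1.09), Lhx9 (1.97), Ntng1 (1.41), Prkcd (1.40), Rora (0.17) and Tcf7l2 (0.88) had the opposite sign; the medians were 0.59 for the members and 0.55 for the other thalamus genes.

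With 1 array left out, which assumes that a lone sample varies like the other group, the lowest and highest differences were -2.35 and 1.23 for Lhx9, -2.14 and 0.32 for Ntng1, -1.86 and 0.84 for Prkcd, -1.35 and 0.14 for Tcf7l2, -1.63 and 0.12 for Rora, -1.86 and 1.34 for Gbx2, -0.23 and 0.74 for Foxp2, -0.69 and 0.038 for Lef1, 0.40 and 0.75 for Lhx2 and -2.34 and -0.06 for Ramp3. Between 3 and 8 members were then lower, the member median ran from -1.32 to 0.13 and that of the other thalamus genes from -0.95 to 0.02. Genes at least 2-fold apart without overlap numbered 257 in all, and 528 to 884 with 1 array left out; there were 151 with normexp, 23 with normexp after outlying local backgrounds were replaced, 811 without the filter and 78 with the filter on all arrays, where fewer probes are tested. Normexp moved the median of all genes from -0.0065 to -0.12, and the cause was not tested.

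The labels number the samples of both groups 1 and 2 without saying that a number marks a shared animal or day. With the replicate block 0 genes passed and the member median was -0.53. Deviations of same-numbered samples correlated at -0.158 over 21426 genes; with the numbers crossed, a pairing chosen after seeing the data, 0 genes passed.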

Other observations

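Reticular and prethalamic neurons surround the relay nuclei and inhibit them. Of their 12 tested markers 7 had a higher and 5 a lower mean after dark rearing (median 0.03), and 0 passed in limma after adjustment, while 2 had an unadjusted p under 0.05 (1.26% of all genes). In 4 of the 12 the groups did not overlap, against 19.1% of all genes. Pvalb, the gene of the calcium buffer parvalbumin, was at -2.09 in D1 and -3.37 in D2, against 0.47 in C1 and -1.19 in C2. Both dark-reared samples lay below both controls, by a difference of -2.37 (limma standard error 0.76, unadjusted p = 0.0361, adjusted p = 1) and of -2.18 within the shared slide. Six3, a homeobox gene of ventral forebrain neurons, was also lower in both, by -0.54 with a standard error of 0.17. Dlx1, a homeobox gene of inhibitory neurons, was higher in both dark-reared samples, by 0.44, without passing.

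Of the 17 tested cortex and hippocampus markers, 10 had a higher and 7 a lower mean after dark rearing, and 3 were at least 2-fold higher. Fezf2, a factor of deep cortical layers and 1 of these 3, was higher in both dark-reared samples, by 1.37 (standard error 0.34). Over all genes 0.429% were at least 2-fold higher without overlap. Fezf2 did not pass in limma (adjusted p = 1).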
